A study of Mus musculus with 6 samples.

Results

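The DEAD and DEAH box RNA helicases were followed in quadriceps muscle as the protein-coding genes whose mouse symbol begins with Ddx or Dhx and a number, without Dhx58 and without genes on chromosome Y. Of 50 such genes in the tables, 47 had a mean expected count of at least 10 over the 6 libraries and were kept, out of 53947 genes in all. They comprised 32 Ddx and 15 Dhx genes. The 3 genes below the minimum were Ddx25 and Ddx4, both with a mean of 0 counts, and Ddx43 with a mean of 1 count, whereas Ddx11 was the lowest gene kept with a mean of 10.2 counts. All 47 passed the filter on low counts, and 13576 genes were tested.

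The study compared total RNA from quadriceps of 12-week-old mice, 3 WT and 3 HSALR samples, sequenced after depletion of ribosomal RNA with a stranded kit. HSALR mice carry a transgene of human skeletal actin with an expanded CTG repeat in its untranslated part. The repeat RNA, made in muscle fibres, gathers MBNL splicing factors in nuclear foci, so the line is used to model type 1 myotonic dystrophy. The comparison asks how the muscle transcriptome differs where MBNL proteins are sequestered. The labels give each sample a replicate number but not the animal or litter it came from, and p-values therefore describe only how these samples spread.

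DEAD and DEAH box proteins use ATP to open short RNA duplexes, to strip proteins from RNA or to clamp onto it, and they act at every stage in the life of an RNA. Splicing, export through the nuclear pore, ribosome assembly, translation and decay each depend on members of their own. Both families share a core of paired domains, and the name comes from motif II, the short stretch that binds ATP and magnesium. Several members have been linked to repeat RNA or to MBNL proteins in myotonic dystrophy, among them Ddx5, Ddx6, Ddx17 and Dhx9.

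The motif was read from the coding sequence of the canonical transcript of each gene (GENCODE M39, GRCm39) and was found in 46 of the 47. The codons spelled DEAD in 24 genes and DEAH in 9, one of them Ddx11, while DEVH was found in 5, DEVD in 3, DECD in 2, DEIH in 2 and DESD in 1. In Dhx32 no stretch matched. The lines below give 30 coding bases around the motif, 5′ to 3′ on the coding strand, with the 12 bases of the motif in capitals. They are shown for the 4 genes called below, for Ddx19a as the paralog of Ddx19b, for Ddx5 as the most abundant member, and for Ddx39b, Dhx15 and Dhx9 as examples of DECD, DEAH and DEIH.
Ddx6: atagtgctaGATGAGGCAGATaaattgttg
Ddx3x: ctggtgttaGATGAAGCTGACcggatgtta
Ddx23: gtggttctgGATGAGGCGGATaggatgatt
Ddx19b: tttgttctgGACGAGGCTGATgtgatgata
Ddx19a: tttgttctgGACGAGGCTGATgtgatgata
Ddx5: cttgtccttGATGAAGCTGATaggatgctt
Ddx39b: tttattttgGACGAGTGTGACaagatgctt
Dhx15: ataattcttGATGAGGCCCATgaaagaaca
Dhx9: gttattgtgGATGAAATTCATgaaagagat
The windows lie in coding exons: exon 11 of 17 for Ddx3x (chrX:13155638-13155667, plus strand), exon 13 of 17 for Ddx23 (chr15:98546506-98546535, minus strand) and exon 8 of 12 for Ddx19b (chr8:111737958-111737987, minus strand). That of Ddx6 begins in exon 7 of 14 and runs across a splice junction (chr9:44537765-44538949, plus strand). The windows of Ddx19a and Ddx19b were identical over all 30 bases, which bears on how their reads can be told apart.

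Library totals ranged from 14048603 to 15023710 expected counts in WT and from 11468959 to 13220792 in HSALR. The small non-coding RNAs 7SL and 7SK took 14.1% to 15.5% of the counts in WT and 43.9%, 18.8% and 24.0% in HSALR replicates 1, 2 and 3, so that HSALR replicate 1 stood apart. Every HSALR share lay above every WT share, so in fits that adjust for it the share and genotype cannot be fully told apart. The defining muscle genes were abundant in every library, with a summed level of 237624 to 270836 CPM in WT and 90710 to 189352 CPM in HSALR (CPM, read counts per library scaled by TMM to the same depth), and none of the 10 was called. Much of this sum was Ttn, a transcript of 58631 bases, with a mean of 135069 CPM in WT and 55062 CPM in HSALR. The log2 fold changes (HSALR over WT) of the 10 genes ran from -1.29 for Ttn to -0.07 for Acta1. Macrophage markers summed to 157 to 178 CPM in WT and 226 to 689 CPM in HSALR with 4 of 9 called higher, and fibroblast markers to 1243 to 1380 CPM and 1585 to 4910 CPM with 1 of 6 called higher. Sums of adipocyte markers (71.4 to 404 and 193 to 1181 CPM, 0 of 5 called) and of endothelial markers (151 to 175 and 121 to 187 CPM, 1 of 5 called lower) overlapped between the groups. Proliferation markers summed to 2.05 to 2.67 CPM in WT and 3.54 to 7.22 CPM in HSALR, with 2 of 6 genes tested and 0 called. In such bulk RNA, fewer cells of a type and less RNA per cell cannot be told apart, and the part of these shifts in the helicase results was not tested beyond the fits named below.

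Among the members, 4 genes fell in HSALR muscle and 0 rose. Ddx6, Ddx23, Ddx19b and Ddx3x, which act in mRNA decay, splicing, export and translation, lay at 59.1%, 55.0%, 56.8% and 70.3% of their WT mean. They were called by edgeR's quasi-likelihood test with an adjusted p below 0.05 over all genes tested, and at an unadjusted p below 0.05 there were 9 lower and 1 higher. The 4 of 47 correspond to 8.51%, beside 7.48% called lower among all genes tested and 4.28% called higher (11.8% in either direction), so the share of helicases that fell was near the background. DESeq2 called the same 4 genes lower and also 0 higher, beside 9.31% lower and 8.57% higher among all genes.

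The members as a list leaned downwards. The log2 fold change (HSALR over WT) was negative in 34 and positive in 13, beside 6396 negative and 7180 positive over all genes tested. The median was -0.17 beside 0.04 over all genes tested. In 17 members (36.2%) the groups did not overlap in CPM, beside 37.8% of all genes. All HSALR libraries lay below all WT libraries in 14 of them (29.8%, beside 20% of all genes) and above in 3 (6.38%, beside 17.8%). Against the WT mean, the median difference over members was -0.21, -0.07 and -0.12 in HSALR replicates 1, 2 and 3, with 35, 30 and 30 of the 47 below 0. With the share of 7SL and 7SK as a covariate the median was -0.059, and without HSALR replicate 1 it was -0.13. As a share of all protein-coding counts the members took 0.170%, 0.183% and 0.176% in the WT libraries and 0.213%, 0.181% and 0.193% in the HSALR libraries. These ranges overlapped, but HSALR replicates 1 and 3 lay above every WT library, so this share did not lean downwards.

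**Figure D1:**
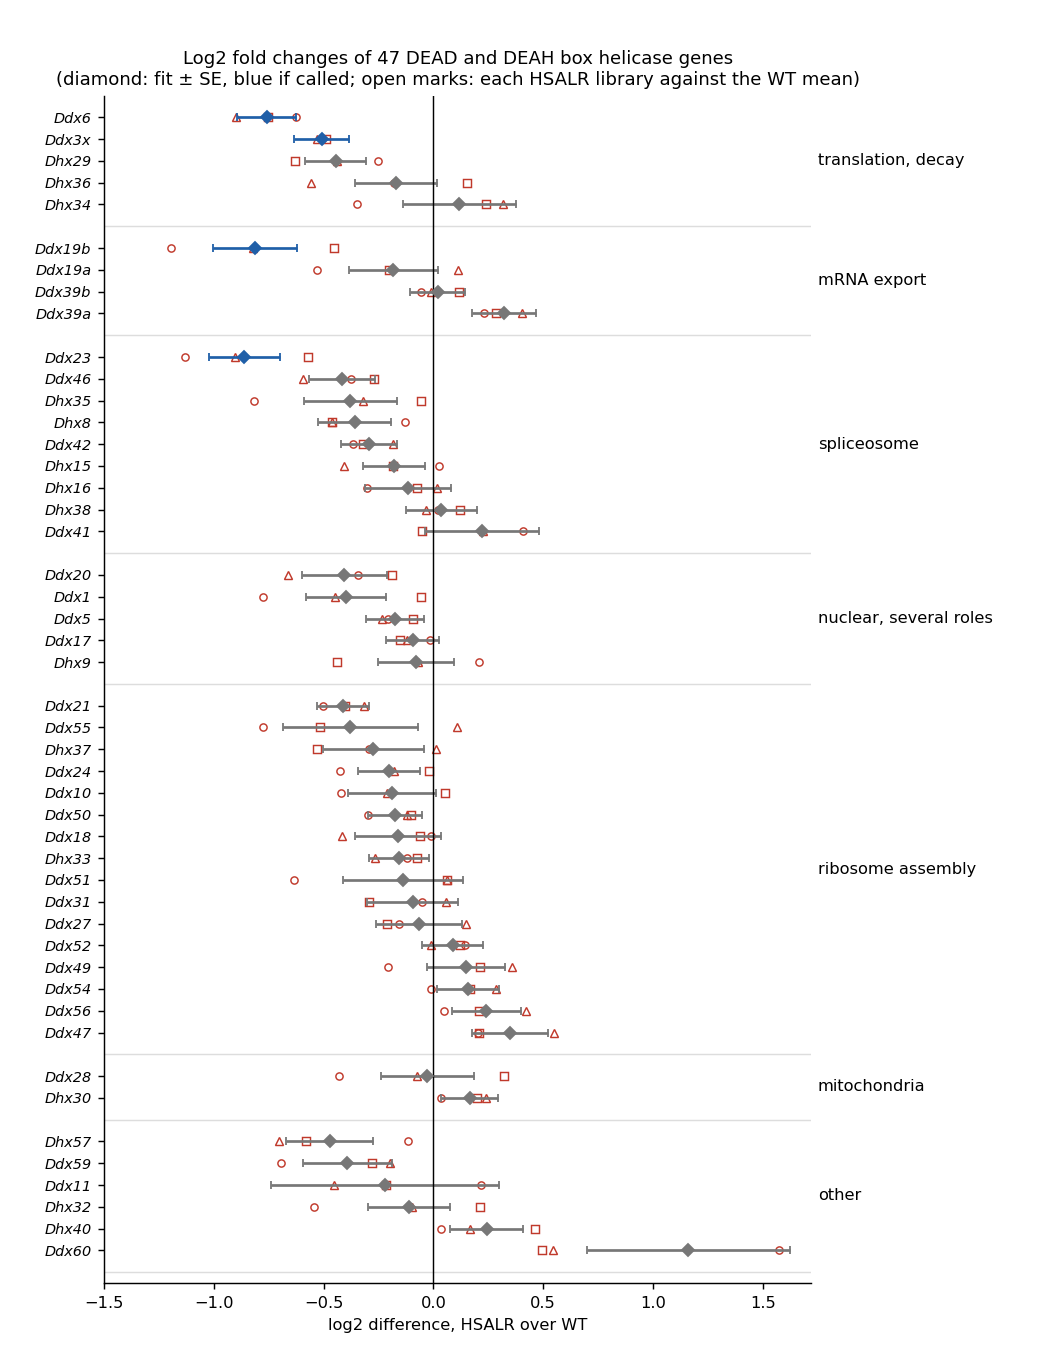
Log2 fold change of each of the 47 helicase genes (x axis, HSALR over WT, diamond with SE from the edgeR fit) by role, with open circles, squares and triangles for HSALR replicates 1, 2 and 3 against the WT mean. Blue diamonds are the 4 genes called lower, and Ddx60 lies alone on the right at 1.16 with HSALR replicate 1 farthest out.

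Per length, the members covered a wide range of levels in WT muscle. Ddx5 was the most abundant with 66.1, 75.8 and 60.5 TPM (a level corrected for transcript length and library size) in the 3 WT libraries, and Ddx3x came next with 23.3, 30.7 and 25.4 TPM. Ddx5 lay above Ddx3x, and Ddx3x above Ddx39b (19.3 ± 0.71 TPM, SD, n = 3), in every WT library. Below these the neighbours overlapped: Ddx39b with Ddx1 (17.1 ± 3.11 TPM), Ddx1 with Ddx17 (14.7 ± 0.804 TPM) and Ddx17 with Ddx6 (12.7 ± 1.43 TPM). The lowest mean levels in WT were 0.22 TPM for Ddx60 and 0.12 TPM for Ddx11. Of the genes that fell, Ddx3x ranked 2, Ddx6 ranked 6, Ddx23 ranked 10 and Ddx19b ranked 33 of the 47 by mean TPM in WT.

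The helicases of translation and mRNA decay, a role list of 5 genes, held 2 of the 4 falls, beside 7.48% called lower among all genes. A list of 5 genes is too short to show that falls gather in it. Its median log2 fold change was -0.45 and 4 of 5 values were negative. Ddx6 (ENSMUSG00000032097, chr9:44514963-44552028, plus strand) is the decapping activator that represses translation and gathers mRNAs in P bodies. It was read at 124, 129 and 114 CPM in WT replicates 1, 2 and 3 and at 79.0, 72.3 and 65.4 CPM in HSALR replicates 1, 2 and 3. Every HSALR library lay far below every WT library, and the HSALR values lay within a narrow band. The fall was -0.76 ± 0.13 on the log2 scale (SE, edgeR adjusted p = 0.0124).

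Ddx3x (ENSMUSG00000000787, chrX:13146705-13160293, plus strand) helps ribosomes to scan structured leaders of mRNAs. Its levels were 118, 137 and 137 CPM in WT and 91.9, 93.1 and 90.4 CPM in HSALR. The HSALR libraries were nearly equal to each other (SD 1.34 CPM), WT spread more widely (SD 10.6 CPM), and the groups did not overlap. Ddx3x fell by 0.51 ± 0.13 on the log2 scale (edgeR adjusted p = 0.0366), with differences of -0.51, -0.49 and -0.53 in HSALR replicates 1, 2 and 3. Ddx3x escapes X inactivation, and its level can follow sex. All 6 libraries held counts from Y-linked protein-coding genes (1288 to 2013 per library) and 0 to 1 count of Xist, so the groups did not differ in sex.

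The other genes of this role were not called. Dhx29, which helps the small ribosomal subunit along structured mRNAs, was chosen for mention after its values were seen: it was read at 21.04, 22.4 and 22.5 CPM in WT and 18.3, 14.02 and 16.1 CPM in HSALR. These groups did not overlap, with a difference of -0.45 ± 0.14 on the log2 scale (adjusted p = 0.0678 by edgeR). In TPM the groups of Dhx29 overlapped, with HSALR replicate 3 (4.51) above all WT libraries (2.82, 4.33 and 2.9). Over the 19 alternatives its log2 fold change ran from -0.65 to 0.069, so the sign was not kept throughout, and it was called in 2. Dhx36, which resolves G-quadruplexes, had -0.17 ± 0.19 and Dhx34, which acts in nonsense-mediated decay, had 0.12 ± 0.26.

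**Figure D2:**
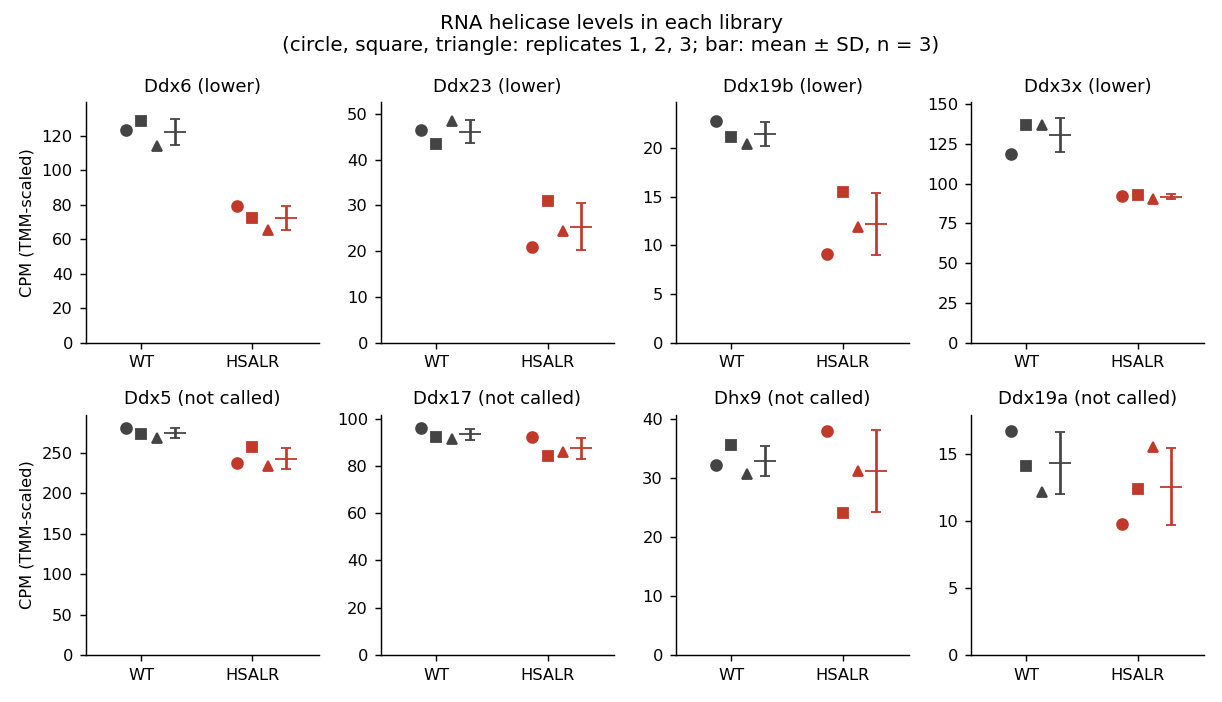
CPM on TMM-scaled library sizes (y axis from 0) in each WT (grey) and HSALR (red) library for the 4 helicase genes called lower (top) and for 4 that were not called (bottom), with bars for the mean ± SD (n = 3). The groups do not overlap in the top row and in Ddx5, and they overlap in Ddx17, Dhx9 and Ddx19a.

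Proteins that work with Ddx6 in decapping and deadenylation were followed as a list of 27 genes, of which 3 fell and 1 rose, and the median was -0.15 on the log2 scale. The falls were 11.1% of the list and the rise 3.70%, beside 7.48% and 4.28% over all genes, so the list was near the background. Patl1, the scaffold between Ddx6 and the decapping enzyme, fell from 15.2 ± 1.45 to 8.44 ± 0.836 CPM (SD, n = 3), by 0.85 ± 0.16 on the log2 scale (edgeR adjusted p = 0.016). Lsm14a, a P body protein that binds Ddx6 directly, fell from 46.7 ± 1.18 to 27.4 ± 4.76 CPM, by 0.77 ± 0.15 (adjusted p = 0.0167). Cnot1, the scaffold of the CCR4-NOT deadenylase that recruits Ddx6, fell from 106 ± 2.83 to 70.9 ± 4.28 CPM, by 0.58 ± 0.12 (adjusted p = 0.0217). In each of these 3 genes all HSALR libraries lay below all WT libraries, and the call held in 14, 13 and 11 of 19 alternatives. An effective length offset ended the call of Lsm14a at -0.71 (adjusted p = 0.0896) and that of Cnot1 at -0.60 (adjusted p = 0.0529), and Cnot1 also lost it with the replicate block and with the length trend of each library removed (-0.47, adjusted p = 0.0671). Lsm3, a subunit of the Lsm rings that bind the ends of decaying mRNAs and U6 RNA, rose from 12.2 ± 1.12 to 19.3 ± 4.03 CPM, by 0.66 ± 0.18 (adjusted p = 0.043). Lsm3 was called in 9 of 19 alternatives, and with the length trend removed it was at 0.29 and not called (adjusted p = 0.241). Its log2 fold change ran from 0.082 to 0.77 over the alternatives, and its groups overlapped in TPM.

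The spliceosomal helicases numbered 9, with a median log2 fold change of -0.29 and 7 negative values. Of these, 1 gene was called lower (11.1%, beside 7.48% of all genes). Ddx23 (ENSMUSG00000003360, chr15:98543012-98560785, minus strand), the U5 snRNP helicase that releases U1 from the donor site, showed the lowest fold change of all members. It was read at 46.5, 43.4 and 48.4 CPM in WT and at 20.8, 30.9 and 24.4 CPM in HSALR. All HSALR libraries were below WT, with the lowest value in HSALR replicate 1. The fall was -0.86 ± 0.16 on the log2 scale (edgeR adjusted p = 0.0148). All of its counts were whole numbers in the 6 libraries, which gives no sign of reads divided with another gene.

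Dhx15, which takes spliced lariats apart and is the most abundant spliceosomal member per length, was read at 44.0, 42.9 and 43.9 CPM in WT and 44.5, 38.3 and 32.7 CPM in HSALR. HSALR replicate 1 lay above all WT libraries and the others below. Its log2 fold change was -0.18 ± 0.14 (edgeR adjusted p = 0.397). Of the 7 remaining spliceosomal genes, named here after their values were seen, Ddx46 (-0.42), Dhx35 (-0.38), Dhx8 (-0.36) and Ddx42 (-0.29) had the lowest log2 fold changes, with adjusted p from 0.0978 to 0.249. Dhx16 had -0.12, Dhx38 had 0.04 and Ddx41 had 0.22. G-patch proteins, which switch on Dhx15 and other DEAH helicases, were tested as a list of 21 genes with a median of -0.10. One fell, Gpatch8, from 32.1 ± 2.42 to 19.1 ± 3.51 CPM (-0.75 ± 0.16 on the log2 scale, adjusted p = 0.0231), and 0 rose. These are 4.76% lower and 0% higher, beside 7.48% and 4.28% over all genes. Gpatch8 was called in 13 of 19 alternatives, not with the effective length offset, and its groups overlapped in TPM.

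The mRNA export helicases numbered 4, of which 1 was called lower (25%, beside 7.48% of all genes). They held both a gene that fell and its near-identical neighbour that was not called. Ddx19b (ENSMUSG00000033658, chr8:111729803-111758383, minus strand) and Ddx19a (ENSMUSG00000015023, chr8:111700684-111724465, minus strand) encode forms of the helicase that strips export factors from mRNA at the nuclear pore. Ddx19b was read at 22.9, 21.2 and 20.4 CPM in WT and at 9.12, 15.5 and 11.9 CPM in HSALR. The groups were apart, and HSALR replicate 1 was the lowest. The fall was -0.81 ± 0.19 on the log2 scale (edgeR adjusted p = 0.0299). Ddx19a was read at 16.7, 14.1 and 12.2 CPM in WT and at 9.78, 12.4 and 15.6 CPM in HSALR, and its groups overlapped. Its log2 fold change was -0.18 ± 0.20 (adjusted p = 0.563).

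The genes lie 5338 bases apart and their coding sequences were identical at 93.6% of 1434 aligned bases. Of the 50-base words in the transcripts of Ddx19a, 18.9% were also found in Ddx19b, and 10.1% of those of Ddx19b were found in Ddx19a. The counts of both genes were fractional in all 6 libraries, so RSEM had divided reads between features. How much of the difference between them comes from this division is uncertain. Summed to 1 feature, they were read at 39.6, 35.2 and 32.6 CPM in WT and at 18.9, 27.9 and 27.5 CPM in HSALR, with no overlap. The sum differed by -0.53 ± 0.17 on the log2 scale (edgeR adjusted p = 0.0735), so the sum was not called. This summing was chosen after the data had been seen.

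Within each library the log2 ratio of Ddx19a to Ddx19b in TPM was 1.14, 1.18 and 0.84 in WT and 2.52, 1.80 and 2.05 in HSALR. The HSALR ratios all lay above WT, by 1.07 on average. On counts the same difference was 0.65. TPM also depends on the length that RSEM weighted. Its mean went from 1832 bases in WT to 1460 in HSALR for Ddx19a, with 1167 in HSALR replicate 1. For Ddx19b it went from 5396 to 5511 bases, and the groups overlapped in both genes. The part of length in the ratio was not tested. By an exact two-sided permutation test p for the TPM ratio was 0.1, the lowest value possible with 3 libraries a group. After adjustment over the 4 pairs of related genes compared it was 0.2. For Ddx39a over Ddx39b the ratio was -2.02, -2.07 and -2.26 in WT and -1.78, -1.92 and -1.75 in HSALR, again without overlap (difference 0.30, exact p = 0.1, adjusted 0.2). The ratios of Ddx5 to Ddx17 (difference -0.02, exact p = 0.7) and of Ddx21 to Ddx50 (difference -0.15, exact p = 0.4) overlapped between the groups. On counts these differences were -0.08 (exact p = 0.4) and -0.24 (exact p = 0.1 before adjustment), and the groups were then apart for Ddx21 to Ddx50.

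**Figure D3:**
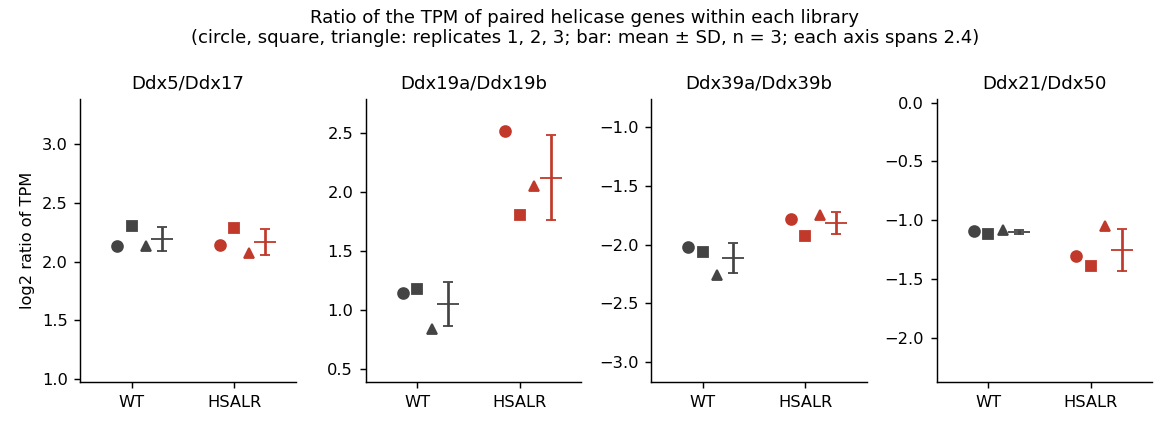
Log2 ratio of TPM between related helicase genes (y axis, each panel spanning the same range of 2.4) in each library, with the mean ± SD (n = 3). The HSALR libraries (red) lie above WT (grey) for Ddx19a over Ddx19b and, by less, for Ddx39a over Ddx39b, and they overlap for the other pairs.

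Ddx39b, the TREX complex helicase that loads export adaptors onto mRNA, was read at 49.7, 47.1 and 55.8 CPM in WT and at 48.9, 55.2 and 50.4 CPM in HSALR. The groups overlapped entirely and the log2 fold change was 0.02 ± 0.13 (edgeR adjusted p = 0.934). Its paralog Ddx39a was read at 11.9, 10.8 and 11.1 CPM in WT and at 13.3, 13.9 and 15.1 CPM in HSALR. All HSALR values were higher, but the change of 0.32 ± 0.14 was not called (adjusted p = 0.163). The annotation puts 3198 exonic bases of Adgre5 on the strand opposite to Ddx39a, and no source used here states whether the counting was by strand. Export partners of these helicases, 16 genes of the TREX complex and the nuclear pore, showed 0 calls in either direction and a median of -0.06. The lowest p values in that list were those of the export adaptor Fyttd1 (-0.46 ± 0.17, adjusted p = 0.109) and of Gle1, the activator of the Ddx19 helicases (-0.32 ± 0.13, adjusted p = 0.131).

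The 4 helicases linked to repeat RNA or MBNL proteins comprised Ddx6, which fell, and Ddx5, Ddx17 and Dhx9, which were not called. That is 25% called lower, beside 7.48% of all genes, in a list too short to show that falls gather in it. All 4 log2 fold changes were negative, with a median of -0.14. So were those of 34 of the 47 members and 6396 of the 13576 genes tested. Ddx5 (ENSMUSG00000020719, chr11:106671180-106680024, minus strand), a coregulator of transcription and splicing, was read at 281, 274 and 269 CPM in WT and at 238, 258 and 234 CPM in HSALR. The HSALR libraries all lay below WT, by little, and differed from it by -0.18 ± 0.13 on the log2 scale (edgeR adjusted p = 0.383). A processed pseudogene, Gm12183, holds 9.59% of the 50-base words of Ddx5.

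Ddx17, the closest relative of Ddx5, was read at 96.2, 92.3 and 91.6 CPM in WT and at 92.4, 84.1 and 85.9 CPM in HSALR (log2 fold change -0.09 ± 0.12, edgeR adjusted p = 0.616). Dhx9, which opens long RNA duplexes in the nucleus, was read at 32.1, 35.6 and 30.7 CPM in WT and at 38.0, 24.1 and 31.2 CPM in HSALR. HSALR replicate 1 was the highest and replicate 2 the lowest of all 6 libraries, and the log2 fold change was -0.08 ± 0.17 (adjusted p = 0.784).

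Ddx1, a part of the tRNA ligase complex, was read at 88.7, 95.8 and 91.9 CPM in WT and at 53.6, 88.7 and 67.4 CPM in HSALR. HSALR replicate 2 lay at the edge of the WT range and the others well below it. The log2 fold change of -0.40 ± 0.18 was not called (edgeR adjusted p = 0.167), and without HSALR replicate 2 it was -0.61 and called (adjusted p = 0.0158). Without HSALR replicate 1 it was -0.23 (adjusted p = 0.28), and adjusted for 7SL and 7SK it was -0.059 (adjusted p = 0.858). Ddx20, the helicase of the SMN complex that assembles spliceosomal RNPs, had -0.41 ± 0.19 (adjusted p = 0.181, named after its values were seen). Of 8 further SMN complex genes, 6 were tested and 0 called, with a median of -0.25. The lowest p values among these were those of Strap (-0.40 ± 0.16, adjusted p = 0.128) and Gemin7 (-0.23 ± 0.14, adjusted p = 0.264).

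The nucleolar helicases of ribosome assembly formed the largest role list with 16 genes, and 0 were called in either direction. The log2 fold change was negative in 11 and positive in 5, with a median of -0.15 and a range from -0.41 to 0.35. Ddx21, which couples transcription and processing of ribosomal RNA, was read at 34.5, 35.6 and 35.4 CPM in WT and at 24.7, 26.5 and 28.1 CPM in HSALR. Both groups were tight and did not overlap. The log2 fold change of -0.41 ± 0.12 had an edgeR adjusted p of 0.0548, and it was called without HSALR replicate 2 (adjusted p = 0.0415).

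Ddx50, the paralog that lies 13292 bases from Ddx21, was read at 37.1, 37.0 and 40.2 CPM in WT and at 30.9, 35.4 and 35.0 CPM in HSALR. Here too all HSALR libraries lay below WT, by less than for Ddx21, and the log2 fold change was -0.17 ± 0.12 (edgeR adjusted p = 0.356). Ddx24, the most abundant nucleolar member per length, was read at 52.7, 53.9 and 59.2 CPM in WT and at 41.0, 54.5 and 48.7 CPM in HSALR (-0.20 ± 0.14, adjusted p = 0.352). In this role list Ddx47 had the highest log2 fold change (0.35 ± 0.17, adjusted p = 0.2). Reads of Ddx18 (-0.16 ± 0.19) may be shared with a processed pseudogene, Gm16433, that holds 43.4% of its 50-base words.

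The helicases of mitochondria, both needed for assembly of the mitochondrial ribosome, overlapped between the groups. Dhx30 was read at 23.9, 28.5 and 26.7 CPM in WT and at 27.1, 30.4 and 31.2 CPM in HSALR (0.16 ± 0.13, edgeR adjusted p = 0.408). Ddx28 was read at 10.03, 10.8 and 10.02 CPM in WT and at 7.50, 13.0 and 9.72 CPM in HSALR. HSALR replicate 1 was the lowest and replicate 2 the highest library, and the log2 fold change was -0.03 ± 0.21 (adjusted p = 0.94).

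Among the 6 genes of other or less known function, Ddx60 had the highest log2 fold change of all members. Ddx60 (ENSMUSG00000037921, chr8:62381109-62491278, plus strand) is induced by interferon and acts against viruses. It was read at 1.69, 1.85 and 0.817 CPM in WT and at 5.32, 2.26 and 2.35 CPM in HSALR, from 11 to 56 counts per library. In CPM all HSALR libraries lay above WT, with HSALR replicate 1 well above the rest. In TPM the groups of Ddx60 overlapped, with WT replicate 2 (0.42) above HSALR replicates 1 and 2 (0.3 and 0.28). Its log2 fold change of 1.16 ± 0.46 was not called (edgeR adjusted p = 0.122). HSALR replicate 1 also had the highest sum of macrophage markers (689 CPM), and the part of these cells in the value was not tested. Without that library the log2 fold change was 0.66.

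Of the remaining genes of this list, Dhx40 had 0.24 ± 0.17 (edgeR adjusted p = 0.342) and Dhx32 had -0.11 ± 0.19 (adjusted p = 0.711). Dhx32 was read at 30.2, 33.9 and 33.0 CPM in WT and at 22.03, 37.5 and 30.2 CPM in HSALR, so that HSALR replicates 1 and 2 were the lowest and the highest library. Dhx57 (-0.47 ± 0.20), Ddx59 (-0.39 ± 0.20) and the DNA helicase Ddx11 (-0.22 ± 0.52) were not called either.

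RNA helicases with other symbols were tested as a list of 15 genes, of which 14 passed the filter. In this list 2 fell (14.3% of those tested, beside 7.48% of all genes) and 1 rose (7.14%, beside 4.28%). The median was -0.15 on the log2 scale. Snrnp200, the U5 helicase that unwinds U4 from U6, fell from 91.2 ± 5.21 to 66.5 ± 3.96 CPM (SD, n = 3), by 0.45 ± 0.12 on the log2 scale (edgeR adjusted p = 0.0469). Ascc3, which clears stalled ribosomes, fell from 34.3 ± 2.44 to 23.9 ± 3.58 CPM, by 0.52 ± 0.14 (adjusted p = 0.0482). Eif4a3, the DEAD box core of the exon junction complex, rose from 25.8 ± 1.35 to 35.4 ± 3.12 CPM, by 0.46 ± 0.13 (adjusted p = 0.0483). In these 3 genes the groups were apart in CPM. Snrnp200 and Eif4a3 kept their call in 9 of 19 alternatives and Ascc3 in 7. All 3 lost it with the length trend removed and with the replicate block. Their mean transcript lengths were 6467 bases for Snrnp200, 5969 for Ascc3 and 1379 for Eif4a3. The log2 fold change of Eif4a3 ran from 0.061 to 0.61 over the alternatives, and its groups overlapped in TPM.

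**Figure D4:**
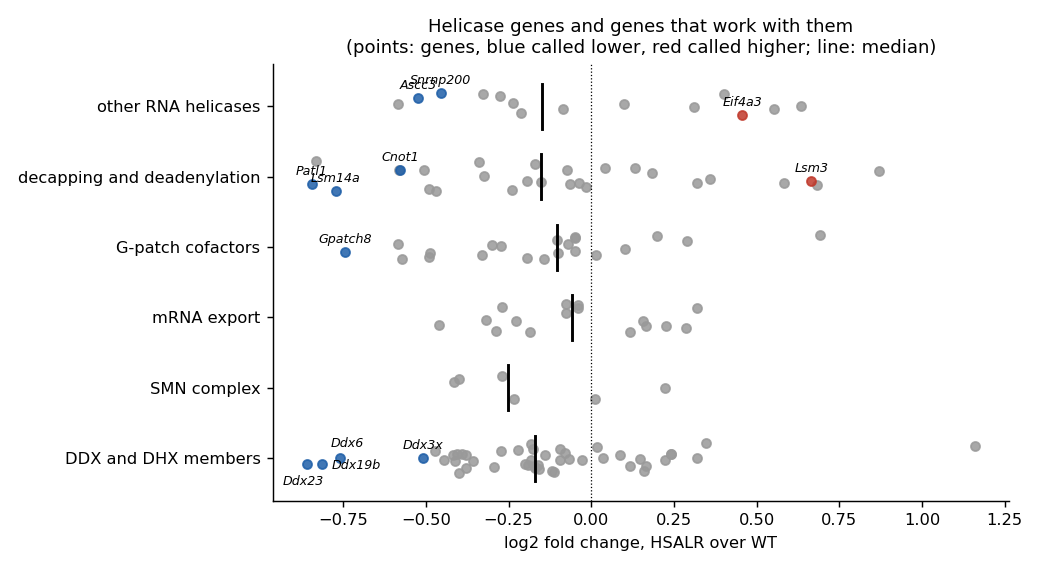
Log2 fold change (x axis, HSALR over WT) of genes that work with the helicases, by list, and of the 47 members in the bottom row. Each point is 1 gene, blue if called lower, red if called higher and grey if not called, and the black line is the median, which lies below 0 in every row.

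Fold changes in these libraries varied with transcript length, and the members were longer than most genes. The median length as RSEM weighted it was 3008 bases in the members and 2424 bases in the 12298 protein-coding genes tested. Across genes, which are not independent replicates and share the 6 libraries, Spearman's rho between length and log2 fold change was -0.37 over the 47 members and -0.25 over the protein-coding genes. The 14 members shorter than 2424 bases had a median log2 fold change of -0.07 and 0 calls, beside 0.15 with 3.04% called lower and 5.66% called higher in protein-coding genes below that length. The 33 longer members had a median of -0.19 and 4 calls, 12.1% of them, beside -0.10 with 12.8% called lower in long protein-coding genes. The share of long helicases that fell was near that of long genes. With each library's trend on length removed, Ddx6 and Ddx23 were called, whereas Ddx19b, at -0.70 beside -0.81 (adjusted p = 0.07), and Ddx3x, at -0.49 beside -0.51 (adjusted p = 0.0567), were not.

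**Figure D5:**
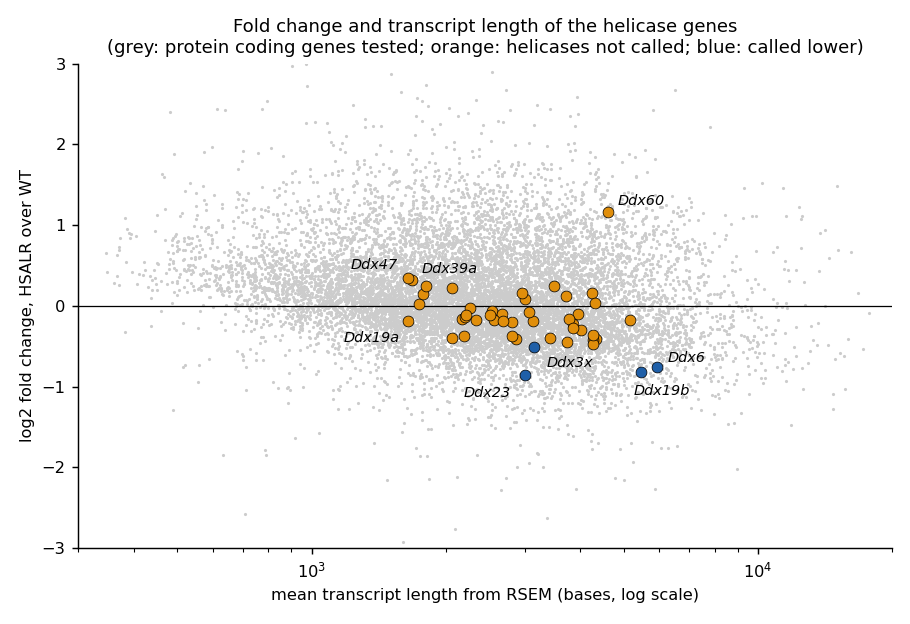
Log2 fold change (y axis, HSALR over WT) against mean transcript length from RSEM (x axis, log scale) for protein-coding genes tested (grey) and helicase members (orange, or blue if called lower). The called members are all longer than 2424 bases, Ddx6 and Ddx19b are among the longest members, and genes beyond 3 on the log2 scale lie outside the axis.

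The weighted transcript length of a gene moves when its isoforms change in proportion. All HSALR libraries had a longer value than all WT libraries in 3 members and a shorter one in 0, that is 6.38% without overlap beside 11.2% of protein-coding genes. The mean lengths in WT and HSALR were 1991 and 2446 bases for Dhx16 (22.9% longer), 2398 and 2671 bases for Ddx27 (11.4%) and 1751 and 1851 bases for Ddx56 (5.71%), genes named after their values were seen. An exact permutation test on 3 against 3 libraries cannot give a p below 0.1. None of the 4 genes that fell was among them.

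The log2 fold changes of the 4 genes were negative in each of the 19 alternatives tried, but their calls were lost where any of 4 libraries was left out. Ddx6 and Ddx23 were called in 14 alternatives each, Ddx19b in 12 and Ddx3x in 10. Adjusting for 7SL and 7SK ended the call of Ddx19b, at -0.45 beside -0.81 (adjusted p = 0.151). It also ended that of Ddx3x, whose log2 fold change of -0.51 was as large as without the adjustment (adjusted p = 0.051). As this share was higher in every HSALR library than in every WT library, these losses cannot be assigned to the share or to genotype. An effective length offset ended the call of Ddx3x at -0.52 (adjusted p = 0.0687). Without any of WT replicates 1, 2 or 3, or without HSALR replicate 3, 0 members were called, where all genes called lower dropped from 1016 to between 124 and 168. On log2(TPM + 0.1) with limma 0 members were called as well, and there the median of all genes shifted by -0.50. Without HSALR replicate 1, the library that stood apart, 6 members were called lower: the same 4, Dhx29 and Dhx57. In that fit 8.46% of all genes were called lower, beside 7.48% in the main fit. Without HSALR replicate 2 there were also 6, the same 4 with Ddx1 and Ddx21, where 13.0% of all genes were called lower. Calls thus rose over all genes as well.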

How the data were processed

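Total RNA from 6 quadriceps samples was measured, grouped as WT or HSALR by their titles. Each sample's table, as the authors deposited it, holds expected counts (reads per gene as RSEM estimates them, with shared reads divided), TPM, FPKM, and length and effective length. FPKM, also deposited by the authors, was not used. GRCm39, Bowtie2 and RSEM 1.3.1 are named in the submitters' processing notes. No source used here gives the annotation release, and the study's methods do not cover these libraries. Symbols and coordinates came from GENCODE M39, matched by gene identifier for 53400 of 53947 genes.

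Expected counts were rounded, filtered with filterByExpr, scaled by TMM and fitted in edgeR 4.0.16 (R 4.3.3, with limma 3.58.1) with genotype alone in the model, using the robust quasi-likelihood test. A gene was called where its p, adjusted by Benjamini-Hochberg over the 13576 genes tested, was below 0.05. SE is the absolute log2 fold change over the square root of F. CPM is on TMM-scaled library sizes, and the common coefficient of variation was 0.231. On counts simulated for this comparison with 200 changed genes in each of 5 simulations (13100 genes tested on average), 0.934% of changes of 0.5 on the log2 scale, 39.8% of 1 and 87.5% of 2 were recovered, and 9.64% of calls were false. No library duplicated another (the lowest chi-square over its degrees of freedom was 9.64).

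The members and all lists were chosen with earlier results of these data known, and 1 gene of the lists is not reported here. Members were named if called, if linked to repeat RNA, if among the 2 highest by TPM of a role list, if in a pair of related genes or if highest or lowest in fold change. Other members given with values fell outside these rules and were picked with results known. Among them were Ddx47, Ddx18, Dhx36, Dhx34, Dhx57, Ddx59 and Ddx11. In each partner list up to 4 called genes, or otherwise the 2 of lowest p, were named. Tried as alternatives were limma-voom, DESeq2 1.42.0, RLE factors, upper-quartile factors, limma-trend on TPM (log2 after adding 0.1), library sizes without 7SL and 7SK, no filter, at least 1 CPM in 3 libraries, protein-coding genes only, a replicate block, the share of 7SL and 7SK as a term, an effective length offset, removal of each library's loess trend on length (span 0.5), and each library left out in turn.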

Additional observations from a re-analysis of the deposited data

How the results depend on the processing

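Called lower were 4 members, and 1016 genes with 581 called higher over all genes, and 0 members were called higher in any alternative. DESeq2 called 1164 genes higher (47.9% of its calls beside 36.4%), and upper-quartile factors gave 48.2%. On log2(TPM + 0.1) there were 0 members lower, 111 genes lower and 22 higher, and a members' median of -0.66, or -0.20 relative to all genes. Adjusting for the share of 7SL and 7SK gave 573 lower and 362 higher, a members' median of -0.059 and 3 members lower (Ddx6, Ddx23 and Dhx29). The effective length offset gave 489 and 253 with 3 members, and removal of the length trend gave 2 members lower, with 759 genes lower and 324 higher. Replicate numbers did not pair the samples (correlations of deviations 0.00052, -0.0949 and 0.228 for numbers 1, 2 and 3), and not every sample correlated best with its own number. With the replicate block 545 genes were lower, 254 higher, and 3 members were called lower, without Ddx3x (adjusted p = 0.097). Leaving out 1 library gave 0 to 6 members lower, 124 to 1815 genes lower, 42 to 1479 higher, a members' median from -0.22 to -0.13, and adjusted p in the fits that lost the call of 0.0599 to 0.0809 for Ddx6, 0.0626 to 0.0818 for Ddx23, 0.0988 to 0.139 for Ddx19b and 0.107 to 0.15 for Ddx3x. Such fits hold 1 library fewer, and the cause of other changes was not tested.

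The difference in the Ddx19a to Ddx19b ratio was 0.65 on counts beside 1.07. Signs turned only in members that were not called. With that adjustment Ddx19a had 0.094, Ddx24 6.94e-05, Ddx28 0.34 and Dhx32 0.26. With the effective length offset Ddx19a had 0.15 and Dhx32 0.060, with the length trend removed Ddx39b had -0.080, and with upper-quartile factors Ddx28 had 0.030. On TPM Ddx39a had -0.21, Ddx39b -0.51, Dhx30 -0.52 and Dhx40 -0.38. With 1 library left out Ddx28 ranged from -0.26 to 0.15, Ddx39b from -0.042 to 0.095, Dhx32 from -0.31 to 0.073 and Dhx9 from -0.24 to 0.068, and the log2 ratio difference of Ddx5 to Ddx17 from -0.082 to 0.035. Named partner genes kept their sign in every alternative. Depth limits Ddx60 and Ddx11 most. In the simulations 0.934% of changes of 0.5 on the log2 scale were recovered. Each simulation held 200 changed genes, whereas 1597 genes were called in the data, so that share may not carry over. Ddx3x, for one, was called at -0.51. Members that missed the threshold are not shown to be equal in both groups.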

Other observations

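Small RNA genes lie within 4 of the members. Ddx5 holds Mir3064 (chr11:106673519-106673585, minus strand) and a further miRNA gene, Ddx19b holds Mir3473d (chr8:111743082-111743162, minus strand), and Ddx39b holds Mir6975 and Mir8094 beside small nucleolar RNA genes. Dhx33 holds a small nuclear RNA gene. Of these hosts Ddx19b fell, and mature miRNAs were not measured in these libraries.

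Fractional counts, the mark of reads divided by RSEM, were found in all 6 libraries for Ddx19a, Ddx19b, Dhx33, Dhx37 and Dhx9. Exonic overlap with a gene on the opposite strand was 2484 bases for Ddx55 with Eif2b1, 1153 bases for Ddx49 with Homer3, 979 bases for Ddx6 with the lncRNA Gm57017, 261 bases for Ddx3x with 2010308F09Rik and 41 bases for Ddx19b with Aars1. Since the strand setting of the counting is not given, reads of these stretches cannot be assigned with certainty.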
